A study of Glycyrrhiza uralensis with 30 samples.

Results

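In roots of Chinese licorice (Glycyrrhiza uralensis) seedlings, 130 of the 34445 genes listed were lower than in control roots at 2, 12 and 24 h in polyethylene glycol, while their levels in stems and leaves stayed within bounds at 2 and 24 h. They were chosen on group means of log2(TPM + 1) of 3 libraries each, where TPM is a level scaled to transcript length and to the library's total. A member had a root difference from control of at most -1 (at least 2-fold lower on this scale) at each of these times. Its shoot differences at 2 and 24 h were under 1 in size, and its highest group mean was at least 5 TPM. These values define the genes, so the root falls at 2, 12 and 24 h are given below as a description. In shoot controls 96 of the 130 averaged at least 1 TPM. Below that level a fall of 1 cannot occur on this scale, so for the other members the shoot bound could not detect a fall.

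The libraries came from roots and from stems and leaves of seedlings labelled as 60 days old, sampled after 2, 6, 12 and 24 h of treatment in MS nutrient solution with 100 g per L of polyethylene glycol 6000 (PEG), and at 0 h as the control. The 10 groups held 3 libraries each, 30 in all, and the same library numbers occur in roots and shoots. The control is labelled as distilled water, so that PEG, the nutrient solution and the hours passed cannot be told apart, and there were no controls at the later hours. The protocol gives 1 week of hydroponic growth, and no source states whether replicate libraries were made from different plants, so p-values measure only the spread between libraries, which may be technical. PEG of high molecular weight stays outside the cell wall and lowers the water potential around the root, which makes it a standard laboratory imitation of drought. Roots meet this change first and are known to slow growth, adjust solutes and change water uptake, while shoots respond through water status and hormones such as abscisic acid. The roots of licorice are also the organ in which its triterpene saponin glycyrrhizin accumulates.

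The genes are known here by identifier only, so no function, gene list, cell type marker or sequence is given. Listed TPM summed to 928931 to 967376 in root libraries and 952418 to 972586 in shoot libraries, and 19906 to 20876 genes reached 1 TPM in a root library, against 18959 to 21776 in a shoot library. In place of tissue markers, 1167 genes at least 8-fold higher in shoot than in root controls were followed. Their median log2(TPM + 1) was 0.79 to 1.77 in root libraries and 5.47 to 6.02 in shoot libraries, and libraries 3 of 2 h (1.77) and 6 of 6 h (1.58) were the highest among roots. The controls chose these genes, so the gap between control roots and control shoots is set by the choice. In treated libraries alone the range was 0.79 to 1.77 in roots and 5.47 to 5.92 in shoots. Read depth is unknown, and in bulk tissue fewer cells of a type and less RNA per cell cannot be told apart. Near-identical gene copies can share reads, so any 1 member's level carries that uncertainty.

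The highest of the 10 group means was in the root controls for 91 members, in another root group for 9 and in a shoot group for 30. The rule asks for control roots above 3 of the treated root groups, so their place among the root groups is largely set by it. Of the 130, 94 were at least 2-fold higher in root than in shoot controls on this scale (4076 of the 20877 genes with a group mean of at least 5 TPM), 14 were at least 2-fold lower and 22 lay between; the rule used both controls, and nothing is read from these counts. In control roots 11 members averaged at least 100 TPM, 81 between 10 and 100 TPM and 38 under 10 TPM, with a median of 17.3 TPM. The 10 members most abundant in each held 57.2% of the members' summed TPM in control roots and 81.2% in control shoots. The identifiers began with 124 different prefixes, and 0 pairs of members stood in neighbouring rows of the files.

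The median member had a log2 level of 4.06, 3.89 and 4.31 in the 3 control root libraries. It had 2.33, 1.83 and 1.64 at 2 h, 3.23, 2.67 and 3.23 at 6 h, 2.40, 2.26 and 2.41 at 12 h, and 2.32, 2.41 and 2.09 at 24 h. Every treated root library was below every control in this median, and those of 6 h were above those of the other 3 treated times. The rule chose genes high in these controls and low at those 3 times, so it favours this order and nothing is read from it. The 235 genes with the same root falls but shoots outside the bounds had medians of 3.34 to 3.69 in roots at 6 h. At the other 3 treated times theirs were 1.77 to 2.51. In summed TPM, the 130 genes held 6849 ± 544 TPM in control roots, 2057 ± 454 after 2 h, 4584 ± 887 after 6 h, 2130 ± 69.0 after 12 h and 1830 ± 644 after 24 h (SD, n = 3 each). That is 0.718% of the listed TPM in control roots, against 0.214% after 2 h, 0.476% after 6 h, 0.222% after 12 h and 0.195% after 24 h. In shoots the sum was 8588 ± 1189 TPM in controls, 8931 ± 378 after 2 h, 10363 ± 1129 after 6 h, 5953 ± 479 after 12 h and 8218 ± 1753 after 24 h (SD, n = 3 each), and the 12 h libraries were below every other shoot library except 1 of 24 h.

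**Figure D1:**
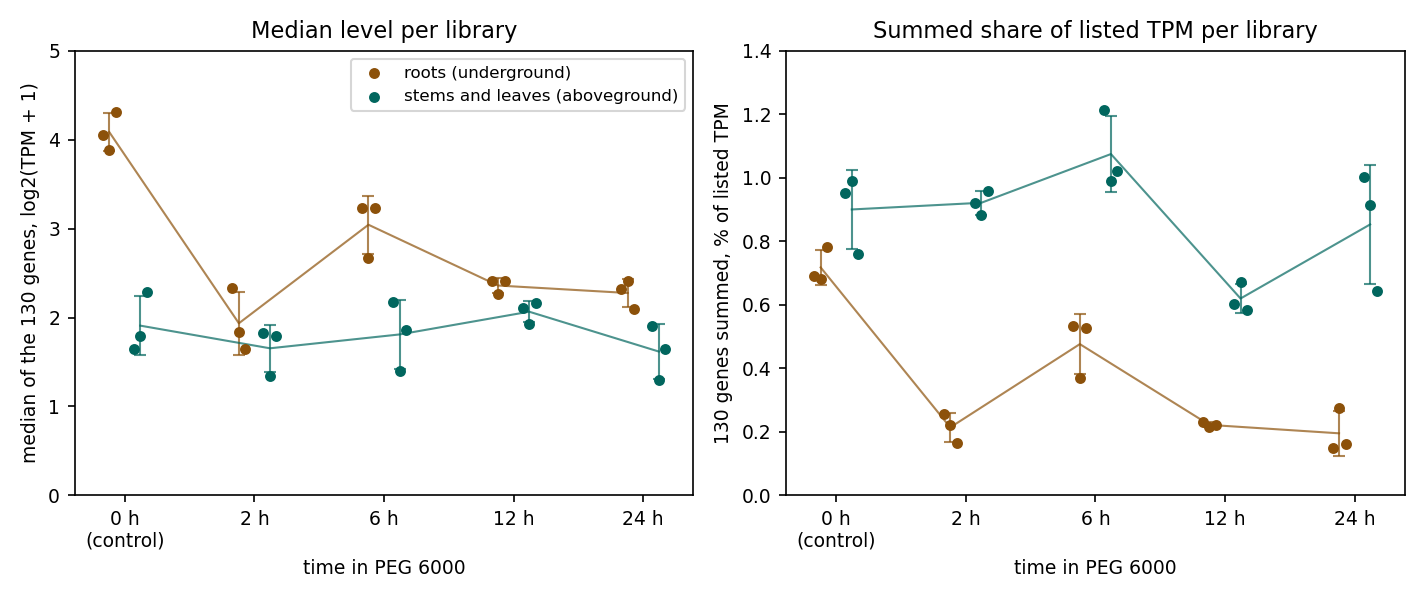
Left, median log2(TPM + 1) of the 130 genes per library against time in PEG; right, their summed share of the listed TPM in percent. Points are libraries, lines join group means and bars are SD of 3 libraries, with roots drawn left of shoots at each time; root medians lie at 3.89 to 4.31 in controls and at 1.64 to 3.23 in treated libraries.

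The falls in roots had a median of -1.91 at 2 h (range -4.32 to -1.01), -1.44 at 12 h (-4.33 to -1.0039) and -1.61 at 24 h (-4.47 to -1.04), in log2 units. Over the 20877 genes with a group mean of at least 5 TPM the medians were -0.10, 0.02 and 0.02 at those times. The deepest of the 3 falls was at 2 h for 68 members, at 12 h for 24 and at 24 h for 38. All 3 differences were at most -2 in 14 members and at most -3 in 2. In 365 genes the root conditions and the minimum level held, and 235 of these were left out because shoots passed the bounds at 2 or 24 h. The 3 members nearest to the limit of the fall had a smallest fall of -1.0039, -1.0077 and -1.0081, and the 3 genes just outside it had -0.9995, -0.9987 and -0.9967. With 29 members within 0.1 inside this limit and 54 genes within 0.1 outside it, the set has no natural edge.

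The 3 control root libraries weighed on the choice. Library 33 was the highest control for 55 members, library 31 for 47 and library 32 for 28, and in 21 members the highest control was over 3 times the median control. The same rule found 239 genes without control 31, 213 without control 32 and 203 without control 33, and 102, 107 and 94 of the 130 were among them. In 56 members all 9 root libraries of 2, 12 and 24 h were below all 3 controls, against 3.68% of the 23107 genes tested in roots, and in 74 members they were not. At 2 h alone 90 members did not overlap with the controls (19.2% of all tested genes), at 12 h 75 (9.56%) and at 24 h 81 (11.4%). In a limma fit of the 15 root libraries, with Benjamini-Hochberg adjusted p under 0.05 over all tested genes, 71 of the 124 members tested were called lower at 2 h (8.03% of all tested genes), 30 at 12 h (0.961%) and 52 at 24 h (3.84%). The call at 12 h was made for 7 members without control 31 or without library 8 of 12 h, for 8 without library 9 and for 19 without control 32. A call at all 3 times was made for 26 members (0.502% of all tested genes), and 53 members had none or were not tested. The rule used these contrasts, so these counts say nothing further about the genes.

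At 6 h, a time the rule did not use, the root difference from control had a median of -0.96 and ran from -4.60 to 1.05. It was at most -1 in 60 members, between -1 and 0 in 59 and at least 0 in 11. It was less negative than all 3 other root differences in 95 members, more negative than all 3 in 8 and within their range in 27. The control libraries are those that chose the members, and the other 3 times were required to be low, so these values are a description. All 3 libraries of 6 h were below all 3 controls in 42 members (7.28% of all tested genes). In 24 members all 3 were above all 9 libraries of 2, 12 and 24 h, the times required to be low. The share of all tested genes with this order was not counted, so nothing is read from the 24. In the limma fit 4 members were called lower at 6 h (0.0909% of all tested genes), and the count was 0 without control 31 or 32, 1 without control 33 or library 6 of 6 h, and 2 without library 4 or 5.

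**Figure D2:**
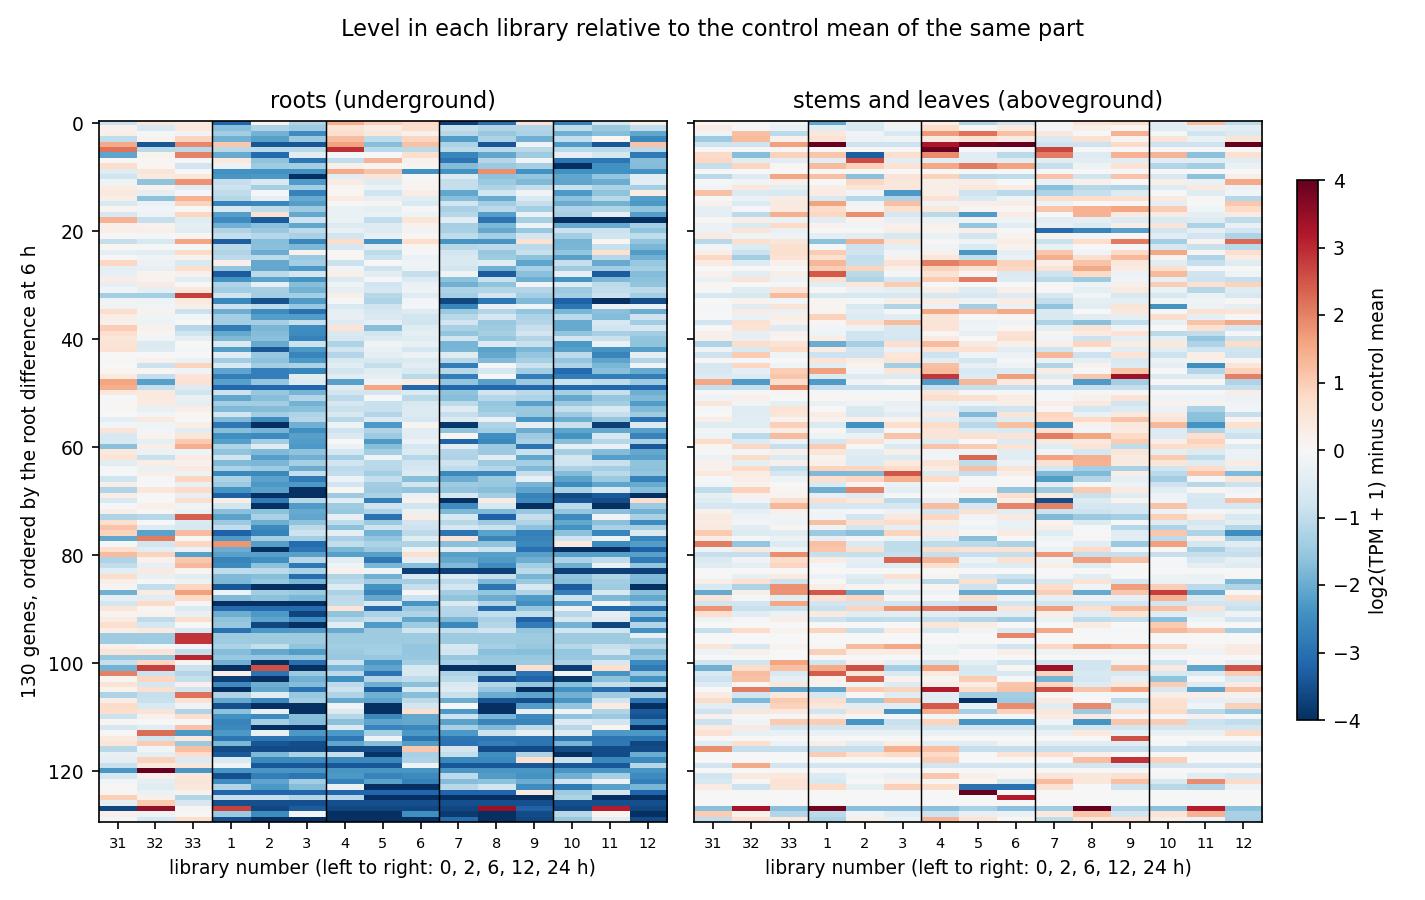
Each row is 1 of the 130 genes, ordered by its root difference at 6 h, and each column a library; colour gives log2(TPM + 1) minus the mean of the 3 controls of the same part, with roots left and shoots right. Blue is lower than control; the root columns of 2, 12 and 24 h are blue through most rows, as the rule requires, and those of 6 h run up to 1.05 above control in their group means at the top.

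Members are given from here by rank in mean TPM of the control roots, rank 1 being the most abundant. Glyur000061s00006569, rank 1, had 1963, 1277 and 706 TPM in control roots, 1019, 455 and 461 at 2 h, 1379, 1298 and 1302 at 6 h, 359, 436 and 476 at 12 h, and 67.9, 224 and 364 at 24 h. The 6 h libraries lay within the range of the controls, and those of 12 and 24 h were below all 3. Its log2 difference from control was -1.02 after 2 h, 0.13 after 6 h, -1.52 after 12 h and -2.76 after 24 h (SE 0.53 each), and the sign of the 6 h value turned (-0.26) without control 33. Without control 31 the 2 h value was -0.67, outside the limit of the rule, and the 6 h value was 0.48. The 2 h value was also outside that limit without control 32 (-0.98), without library 2 or 3 of 2 h (-0.82 and -0.83) and with median-ratio scaling (-0.88). It was -1.40 without library 1 of 2 h or without control 33, and -1.02 under the remaining alternatives. As reported, limma called the root difference from control at 24 h, and not those of 2, 6 and 12 h. In shoots it had 195, 699 and 406 TPM in controls, 925, 734 and 573 at 2 h, 1108, 1606 and 1178 at 6 h, 199.7, 328 and 563 at 12 h, and 168, 149 and 318 at 24 h. The highest shoot levels were thus at 6 h too, above every other shoot library. Its shoot difference at 6 h from control was 1.74 (SE 0.47, limma adjusted p 0.526), and that of 12 h from 6 h was -1.94 (SE 0.47, adjusted p 0.0590); neither was called.

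The members of ranks 4 and 5 had treated libraries apart from the controls at all times but 6 h. Rank 4 had 534, 357 and 181 TPM in control roots, 84.0, 56.1 and 39.9 at 2 h, 254, 205 and 226 at 6 h, 116, 145 and 109 at 12 h, and 90.8, 102 and 81.9 at 24 h. Rank 5 had 325, 268 and 255 TPM in control roots, 106, 74.7 and 48.1 at 2 h, 449, 381 and 315 at 6 h, 130.2, 98.6 and 117 at 12 h, and 73.4, 84.95 and 65.9 at 24 h. In both, the libraries of 2, 12 and 24 h were below every control. At 6 h rank 4 overlapped with the controls, with a difference of -0.52 log2 units, and so did rank 5, with a difference of 0.43.

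In ranks 2, 3 and 6 the libraries of a group spread widely. Rank 2 had 133, 144 and 1653 TPM in control roots, against 71.5, 129 and 73.6 at 2 h, 250.0, 38.7 and 389 at 6 h, 192, 32.8 and 168 at 12 h, and 53.8, 288 and 129 at 24 h. Rank 3 had 174, 383 and 645 TPM in control roots, 91.5, 76.2 and 126 at 2 h, 826, 173 and 637 at 6 h, 74.5, 146 and 91.2 at 12 h, and 177, 364 and 57.9 at 24 h. Rank 6 had 27.2, 700.4 and 57.5 TPM in control roots, and 2.74, 608 and 3.55 at 2 h. In all 3 genes at least 1 of the groups of 2, 12 and 24 h overlapped with the controls.

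Ranks 7 to 10 differed in how far treated roots overlapped with control roots. Rank 7 had 245, 109 and 309 TPM in control roots and 39.0, 121 and 25.03 at 24 h, so that 1 library of 24 h was above 1 control, while those of 2, 6 and 12 h were below all 3. Rank 8 had 119.9, 205 and 156 TPM in control roots, 45.7, 27.1 and 70.3 at 2 h, and 104, 130.4 and 30.3 at 12 h, the 1 time at which it overlapped with the controls. Rank 9 had 222, 101 and 118 TPM in control roots, 33.9, 7.14 and 17.6 at 2 h, 38.1, 49.8 and 123 at 6 h, 103, 75.6 and 16.6 at 12 h, and 4.36, 7.35 and 13.9 at 24 h. Its libraries of 2 and 24 h were below every control, and 1 library each of 6 and 12 h was not. Rank 10 had 80.5, 136 and 173 TPM in control roots, 21.6, 20.2 and 26.5 at 2 h, and 132, 21.9 and 44.7 at 12 h, and it overlapped with the controls at 6 and 12 h.

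**Figure D3:**
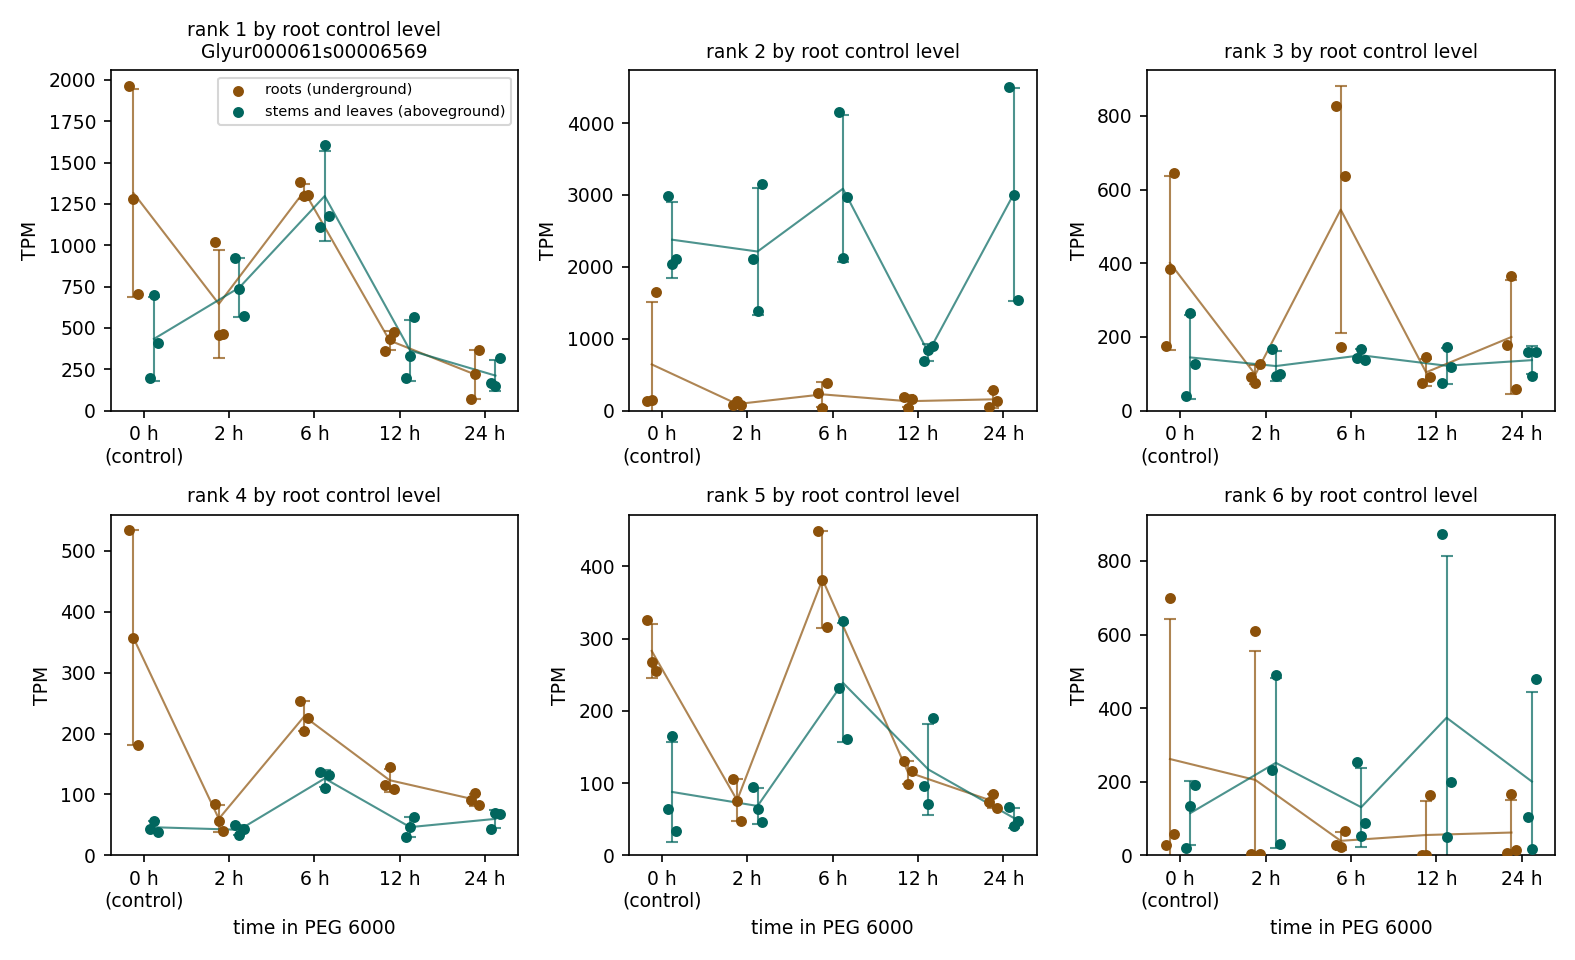
TPM of the 6 members with the highest mean in control roots against time in PEG, for roots (left of each pair) and shoots. Points are libraries, lines join means and bars are SD of 3 libraries, shown from 0 up; ranks 1, 3 and 5 had root means at 6 h at or above their control means, and rank 2 had 2039 to 2985 TPM in control shoots.

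The 5 members with the deepest fall, by the least negative of the 3 differences, had ranks 35 to 106 by level. Glyur000012s00000609, first by this measure and rank 84 by level, had 7.82, 22.5 and 6.31 TPM in control roots and was listed at 0 in all 12 treated root libraries and in all 15 shoot libraries. No fold is given against a group listed at 0. It was 1 of 4 members listed at 0 in every treated root library, and 6 members were listed at 0 in every shoot library. The second deepest, rank 89 by level, had 22.8, 3.68 and 5.07 TPM in control roots, was listed at 0 at 2, 12 and 24 h, and had 5.28, 24.97 and 0 TPM at 6 h. The third, rank 106, had 8.68, 3.25 and 8.84 TPM in control roots, was likewise at 0 at 2, 12 and 24 h, and had 0, 5.44 and 0 TPM at 6 h. In both genes the 6 h group held the only values above 0 among treated roots. The fourth, rank 53, had 26.0, 38.6 and 5.88 TPM in control roots, 4.56, 0.81 and 0.65 at 2 h, 3.56, 4.94 and 3.11 at 6 h, 1.52, 1.91 and 1.60 at 12 h, and 4.40, 1.67 and 0.55 at 24 h. All of its treated libraries were below all of its controls. The fifth, rank 35, had 34.5, 33.0 and 49.0 TPM in control roots, 5.59, 2.47 and 7.14 at 2 h, 36.0, 15.8 and 35.6 at 6 h, 2.14, 4.31 and 10.48 at 12 h, and 3.18, 1.22 and 2.39 at 24 h. At 6 h 2 of its libraries reached the control range, and no other treated library did.

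At 6 h the ends of the range were rank 20 and rank 28. Rank 20 had 1.89, 2.49 and 0.95 TPM in roots at 6 h, against 62.8, 40.5 and 105 in control roots, a difference of -4.60 (SE 0.76). Rank 28 had 127, 92.4 and 80.7 TPM at 6 h, against 25.7, 64.6 and 62.1 in control roots, a difference of 1.05 (SE 1.07). It was the 1 member with all 3 libraries of 6 h above all controls. The share of all tested genes with that order was not counted, so nothing is read from this count. The 4 members called lower at 6 h were Glyur000012s00000609 and those of ranks 14, 20 and 77. Rank 14 had 28.7, 29.2 and 25.5 TPM at 6 h, against 87.3, 73.8 and 69.5 in control roots. Rank 77 had 1.72, 1.09 and 1.31 TPM at 6 h, against 7.44, 14.5 and 17.6 in control roots. In all 4 the groups did not overlap.

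Between the treated root times that chose the members the differences were small at the median: 0.06 log2 units for 24 h minus 2 h (74 members above 0, 46 below), 0.25 for 12 h minus 2 h and -0.05 for 24 h minus 12 h. Single members ranged from -2.63 to 2.77 for 24 h minus 2 h. Rank 13 had 102, 84.95 and 66.2 TPM in control roots, 7.72, 2.80 and 3.47 at 2 h, 29.9, 34.0 and 69.1 at 6 h, 52.6, 31.1 and 12.2 at 12 h, and 5.98, 7.11 and 1.56 at 24 h. Its 12 h libraries were above those of 2 and 24 h and below the controls.

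Roots and shoots were compared at 6 h, where neither group had chosen the members apart from the minimum level. In an unpaired limma fit of all 30 libraries, 127 members were tested. Of these, 47 were higher in roots than in shoots, or 36.2% of the 130, against 23.4% of all 25420 genes tested. A further 16 members were lower in roots, or 12.3%, against 15.8% of all tested genes. The rule used the controls and bounded the shoot changes, and 91 members had their highest group mean in control roots. These shares are therefore a description, and nothing is read from them. The median difference, roots minus shoots, was 0.85 log2 units among tested members and 0.19 over all tested genes. In control libraries, which the rule used, the median over the 130 was 1.90. Of the 235 genes left out by the shoot bounds, 21 were higher in roots at 6 h and 61 lower, with a median of -0.09 over the 235; the difference between the sets was not tested. The median of the 1167 shoot-biased genes was 1.07 to 1.58 in root libraries of 6 h and 5.78 to 5.92 in shoot libraries of 6 h, highest among these roots in library 6. Without library 6 of the roots 38 members were higher and 16 lower.

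The 47 members higher in roots had differences of 0.84 to 4.25, a median of 10.2 TPM in roots and of 0.927 TPM in shoots at 6 h. Rank 14 had 28.7, 29.2 and 25.5 TPM in roots at 6 h, against 0.80, 0.61 and 0.20 in shoots, a difference of 4.25 (SE 0.34, adjusted p 5.94e-10). Rank 33 had 27.3, 54.0 and 38.0 TPM in roots, against 4.85, 0.53 and 0.57 in shoots (4.03, SE 0.78, adjusted p 2.30e-04). Rank 25 had 36.3, 9.57 and 18.1 TPM in roots, against 0.41, 0.23 and 0 in shoots (4.03, SE 0.67, adjusted p 3.88e-05). Rank 45 had 14.99, 14.9 and 16.9 TPM in roots, against 0.42, 0 and 0 in shoots (3.88, SE 0.32, adjusted p 8.14e-10). None of the root libraries overlapped with the shoot libraries in these genes. Of the 47 calls, 29 were made under every alternative in which the gene was tested. Glyur000061s00006569 had 1379, 1298 and 1302 TPM in roots at 6 h, against 1108, 1606 and 1178 in shoots, and was not called (0.05, SE 0.52, adjusted p 0.969); the sign turned under another scaling and without shoot library 4 or 6.

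The 16 members lower in roots averaged 6.19 to 3087 TPM in shoots at 6 h, with differences of -7.54 to -1.21 and medians of 26.9 TPM in roots and 249.4 TPM in shoots at 6 h. All 16 calls were made under every alternative. Rank 31 had 0.22, 0.47 and 8.10 TPM in roots at 6 h, against 368, 517 and 546 in shoots (-7.54, SE 0.94, adjusted p 6.73e-07). Rank 38 had 23.5, 14.1 and 40.4 TPM in roots, against 1101, 1201 and 1142 in shoots (-5.53, SE 0.58, adjusted p 5.11e-08). Rank 2 had 250.0, 38.7 and 389 TPM in roots, against 4158, 2129 and 2974 in shoots (-4.24, SE 0.85, adjusted p 3.13e-04). Rank 21 had 54.9, 46.3 and 60.8 TPM in roots, against 835, 908 and 743 in shoots (-3.92, SE 0.26, adjusted p 3.34e-11). Rank 94 had 7.90, 4.94 and 7.52 TPM in roots, against 104, 102 and 103 in shoots (-3.76, SE 0.39, adjusted p 4.30e-08). Every shoot library was above every root library in these genes. Members with differences of -4.96 and -3.96 were also among the 16, so the genes given are not the largest differences in order.

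**Figure D4:**
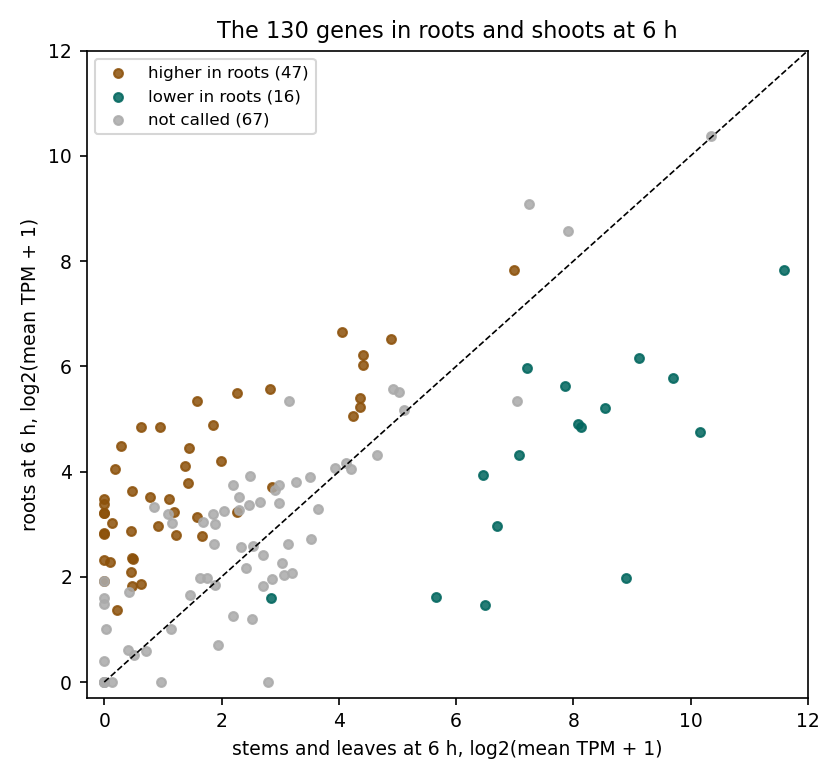
Each point is 1 of the 130 genes, with its mean level in roots at 6 h (vertical) against that in stems and leaves at 6 h (horizontal), both as log2(mean TPM + 1). Brown points (47) were higher in roots by limma, green points (16) lower, and grey points (67, 3 of them not tested) not called; the dashed line marks equal levels.

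In shoots, 98 of the 130 genes passed the filter on low values and 32 did not. At 6 h against control 0 members were called by limma, with or without a trend in the spread, and 0% of the 23541 genes tested were. The unadjusted limma p was under 0.05 in 9 of the 98. The share of all tested genes at that p was not counted, so nothing is read from the 9. The median shoot difference at 6 h was 0.00 over the 130, with 12 members at 1 or more and 9 at -1 or less. At 12 h against control 2 members were lower (0.633% of all tested genes) and 0 higher (0.234%). These 2 shared their control libraries with the bounds of the rule. At 12 h against 6 h, which the rule did not use apart from the minimum level, 3 members were lower (1.14% of all tested genes) and 0 higher (0.497%). The median difference was 0.01 over the 98 members tested, against 0.18 over all tested genes; with median-ratio scaling these were -0.17 and 0.02.

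The members called lower in shoots were chosen for naming after their values were seen. Rank 21 had 86.8, 119 and 168 TPM in shoots at 12 h, against 835, 908 and 743 at 6 h (-2.77, SE 0.27, limma adjusted p 2.60e-04) and 652, 1085 and 626 in controls (-2.66, SE 0.27, adjusted p 3.42e-04). Rank 29 had 56.8, 83.5 and 80.1 TPM at 12 h, against 216, 248 and 227 at 6 h (-1.65, SE 0.25, adjusted p 0.00541) and 171, 254 and 145 in controls (-1.34, SE 0.25, adjusted p 0.0258). Rank 4 had 30.2, 45.8 and 63.0 TPM at 12 h, against 136, 111 and 132 at 6 h (-1.48, SE 0.27, adjusted p 0.0172). In all 3 genes the 12 h libraries did not overlap with those of 6 h. With only the 6 libraries compared, the calls of ranks 21 and 29 at 12 h against control and that of rank 4 at 12 h against 6 h were lost (adjusted p 0.0530 for rank 21, range over alternatives 2.55e-04 to 0.0530). The 12 h call of rank 29 against control was lost without library 7, 8 or 9 of 12 h or without control 31 or 32, and under median-ratio scaling. Leaving out library 4 or 6 of 6 h, or library 7 or 8 of 12 h, also ended the call of rank 4 against 6 h. Rank 2 had 684, 837 and 902 TPM in shoots at 12 h, against 4158, 2129 and 2974 at 6 h (-1.89, SE 0.45, adjusted p 0.0546), and was not called.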

How the data were processed

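Each library's deposited file lists TPM per gene identifier; per the submitters' processing notes the tools were fastp, HISAT2, StringTie, RSEM, DESeq2 and edgeR, and which of them made the TPM, with their versions and the genome build, is not given in the sources used here. Libraries were grouped by the labels' part and time. The members and all tests were chosen with earlier results of these data known. The rule was applied to group means of log2(TPM + 1). Tests used limma 3.58.1 (moderated by empirical Bayes, spread trended on level; R 4.3.3) on log2(TPM + 1), which understates changes of low genes. A gene entered when 3 or more of the fitted libraries reached 1 TPM, and the fits held 15 root libraries, 15 shoot libraries, or all 30 for roots against shoots at 6 h. P-values were adjusted by Benjamini-Hochberg over all genes tested, at 0.05. The test was tried on simulated data in which only genes above a minimum level were changed, so recovery of genes near 0 was not tried. All comparisons with control share the 3 controls of a part. The members named are the highest in control roots and the deepest fall (identifiers), with further members by rank in level, in depth of fall or at the end of a measured range. Ranks 13, 21, 29, 45, 77 and 94 were picked after their values were seen, as were the members given with a root minus shoot difference of 4.03 at 6 h.

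Numbers are shared by root and shoot libraries. At 6 h the deviations of same-numbered libraries from their group means correlated at 0.22, 0.31 and 0.20, and those of differently numbered ones at -0.20 to 0.02. The reported fit of roots against shoots did not pair the libraries. Because of these correlations, pairing by number was tried as an alternative, the replicate block. Alternatives were a pseudocount of 0.1, no filter or one of 5 TPM, median-ratio scaling, no trend, the 6 libraries alone, the replicate block and leaving out each library. TPM keep no depth, so no counting interval is given. No gene names came with the files, so planned lists of pathway genes and tissue markers were not applied.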

Additional observations from a re-analysis of the deposited data

Results flagged for a closer look

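Of 16 combinations of a quantity and a time, roots and shoots lay on opposite sides of their control means in every treated library in 3. Those of Glyur000012s00000609 could not qualify, since it was listed at 0 in every shoot library. At 2, 12 and 24 h the root side was largely set by the rule. The difference between the parts was not tested, and groups of 3 libraries were not screened for a single distant library. The members' median log2(TPM + 1) at 12 h minus control was -1.73 in roots, where the rule requires a fall, and 0.16 in shoots. The 3 shoot libraries of 12 h (1.93 to 2.16) were all below shoot control 33 (2.28), the members' summed TPM in shoots at 12 h differed from controls by -2635 TPM, and the median of the per-gene differences was -0.01. Their summed TPM at 6 h minus control fell by 2265 TPM in roots and was 1774 TPM higher in shoots. In shoots Glyur000061s00006569 was 864 TPM higher, and the member of rank 2 averaged 3087 TPM at 6 h and 2377 TPM in controls, while the members' median log2 level differed by -0.10. Glyur000061s00006569 at 2 h minus control fell by 671 TPM in roots, a contrast that the rule used, and was 310.3 TPM higher in shoots; libraries of 2 h and controls overlapped in both parts.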

How the results depend on the processing

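The rule found 136 genes with a pseudocount of 0.1 (78 of the 130 among them), 125 with median-ratio scaling (106) and 96 with a minimum of 10 TPM (96), and 117 to 239 when 1 library was left out. The count of members lower in roots at 6 h was 2 with a pseudocount of 0.1, with no filter and with a filter of 5 TPM, and 0 to 2 with 1 library left out. With only the 6 libraries compared, 16 members were lower in roots at 12 h, 28 at 24 h, 0 were called in shoots at 12 h against control and 5 at 12 h against 6 h. With 1 library left out, root counts were 54 to 61 after 2 h, 7 to 21 after 12 h and 36 to 47 after 24 h, and shoot counts were 0 at 6 h, 1 or 2 at 12 h against control, and 2 to 4 at 12 h against 6 h; 35 to 45 members were higher and 16 to 18 lower in roots than in shoots at 6 h. The other alternatives moved no count by over 1.5 times. Median-ratio scaling moved the median of all genes from 0.19 to 0.00 for roots minus shoots at 6 h, that of the members from 0.85 to 0.63, and the calls to 40 higher and 18 lower. It moved the median of all genes by over 0.1 also in roots at 2 h (-0.12 as reported, -0.01 scaled). The same held in shoots at 12 h against control (0.10 and 0.00) and at 12 h against 6 h (0.18 and 0.02). With the library number as a replicate block 52 members were higher and 17 lower in roots at 6 h, which moved neither count by over 1.5 times; the other comparisons share no numbers.

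For Glyur000061s00006569, roots minus shoots at 6 h was -0.22 with median-ratio scaling and -0.053 to 0.21 with 1 library left out. Its root difference at 6 h was -0.26 to 0.48 with 1 library left out, its shoot difference of 12 h from 6 h was called with median-ratio scaling (adjusted p 0.0355, range over alternatives 0.0355 to 0.213) and without library 9 of 12 h (0.0496), and its root difference at 24 h was not called with 6 libraries alone (0.0841, range 0.00380 to 0.0841). Glyur000012s00000609 at 6 h was not called with a filter of 5 TPM or with 6 libraries alone (adjusted p 0.0593 and 0.0743, range 0.00229 to 0.0743), and without any 1 control it did not pass the filter. The causes were not tested. TPM without read counts limit what can be said of genes near 0.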
